A study of Mus musculus with 12 samples.

Results

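Complement genes were followed in whole kidneys of 3-week-old mice that lack fat, and in controls of the same backgrounds. The set was named by gene symbol as C3, C4b, Cfb, Cfi, Cfd, C1qa, C1qb, C1qc and Hc, 9 genes in all, out of 19938 genes measured in the series. A gene was read from the probe set that the platform annotation ties to its symbol alone, and where a gene had several such probe sets, from the one with the highest mean over the 12 arrays. That gave 1 probe set each for 7 of the 9 genes (C1qa, C1qb, C1qc, C4b, Cfb, Hc and Cfi), while C3 and Cfd were not analysed here. Cfi was put in the set because its level had been seen to differ between the 2 mutant lines, so its differences are given below as a description with no test. The other genes came in as parts of the same system, with earlier results of these data known.

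The study used 4 groups of 3 arrays. PpargΔ/Δ mice carry a loss of PPARγ, a nuclear receptor needed to form fat cells, and were on a mixed C57BL6/SV129 background. Their controls were mice of the same mixed background, called mixed controls here. AZIP mice were on the FVB background and were set against FVB controls. In the line of that name as generally known, a transgene under a fat cell promoter blocks the formation of fat tissue and leaves Pparg itself in place. The promoter used here, and which part of Pparg is missing and in which cells, are not stated in the labels. Every array held RNA pooled from 3 mice, 36 mice in all, so n = 3 pools per group and the spread between arrays is smaller than that between single mice. Values are RMA signals on the log2 scale, and a difference of 1 is a doubling of the signal.

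Complement is a chain of plasma proteins that tags and lyses targets. In the classical pathway C1q, a complex of the products of C1qa, C1qb and C1qc, binds its target, and its partner proteases cut C4 and C2. In the alternative pathway factor B, from Cfb, joins C3b to form the enzyme that cuts more C3. Both lead to the cleavage of C5, from Hc, and to the assembly of the terminal pore. Factor I, from Cfi, is the plasma protease that shuts the chain down by cutting C3b and C4b with the help of cofactors such as factor H. The liver makes most plasma complement, macrophages make most C1q, and kidney tubules make factor B, C3 and C4 of their own. A signal in whole-kidney RNA cannot tell fewer cells of a type from less RNA per cell.

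The arrays were alike in overall signal, with medians between 7.17 and 7.21, and the mean r between replicate arrays, across genes, lay at 0.997 to 0.998. The kidney identity of the samples was checked on 12 proximal tubule markers, whose mean log2 level was 11.96 to 12.17 in PpargΔ/Δ, 12.21 to 12.35 in mixed controls, 12.19 to 12.28 in AZIP and 12.37 to 12.42 in FVB controls. Differences were tested with limma in 1 fit to all 12 arrays, with p-values adjusted by Benjamini and Hochberg over all 19938 genes and an adjusted p under 0.05 as the threshold. Between PpargΔ/Δ and mixed controls 5.29% of all genes passed (2.67% higher, 2.62% lower), between AZIP and FVB controls 2.43% (1.3% higher, 1.13% lower), and between the FVB and mixed controls 7.22% (3.5% higher, 3.72% lower). Of the 6 complement genes that were tested, 1 was lower in the PpargΔ/Δ comparison, 1 lower in the AZIP comparison and 3 lower in FVB than in mixed controls. The 2 mutant comparisons share no array. The comparison of the control groups shares its arrays with both, and in it strain cannot be told apart from anything else that differed between the 2 colonies.

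**Figure D1:**
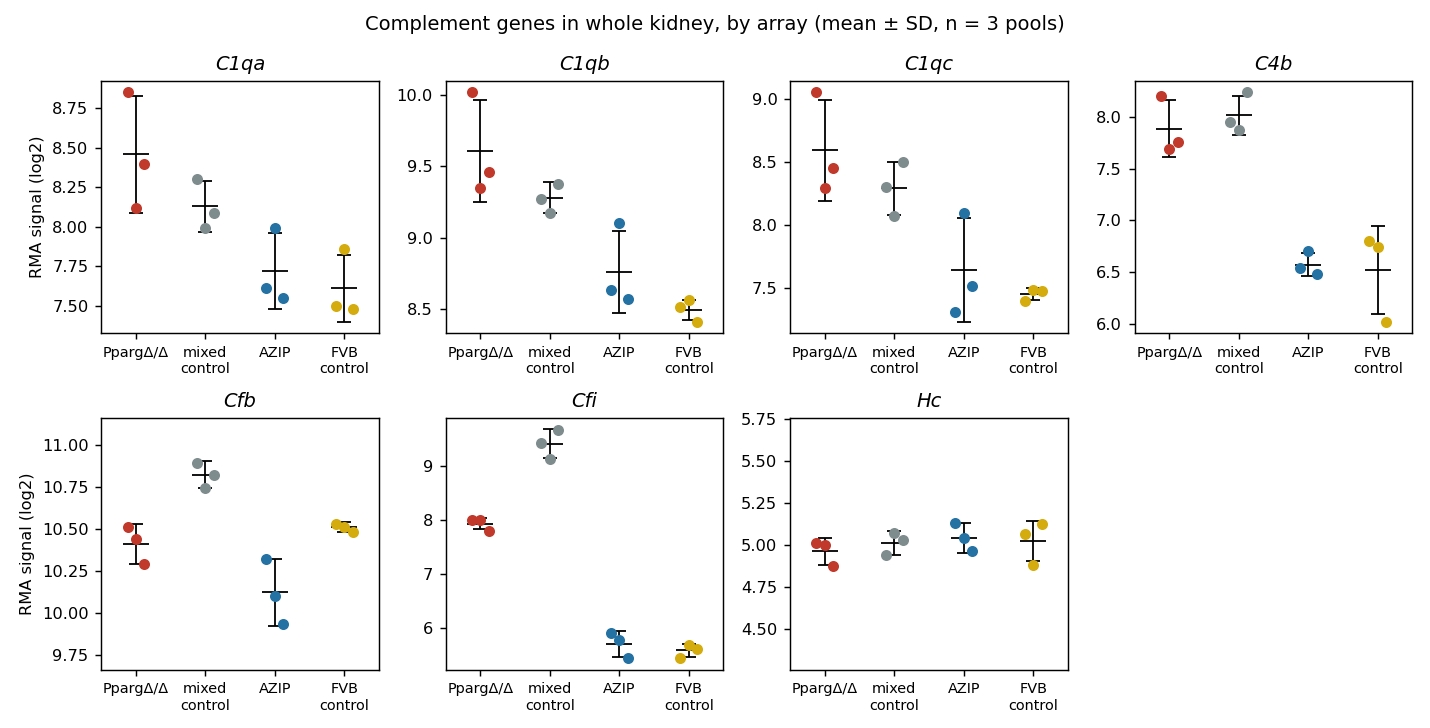
RMA signal (log2) of the 7 measured complement genes on each of the 12 arrays, by group. Points are arrays (pools of 3 mice), the bar and whiskers are the mean ± SD (n = 3), and each panel has its own vertical range. Cfi is lower in PpargΔ/Δ than in mixed controls and lowest in the FVB groups, Cfb is lower in both mutants than in their own controls, C4b and the C1q genes lie lower in the FVB control group than in mixed controls, and Hc is level.

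The regulator Cfi had the largest differences of the set. In PpargΔ/Δ kidneys its signal was 8.0, 8.0 and 7.81, against 9.43, 9.14 and 9.68 in mixed controls. All 3 mutant arrays lay more than 1 log2 unit below the lowest control array. The difference was -1.48 ± 0.14 (log2, SE), a signal 2.79-fold lower, with a 95% interval of -1.78 to -1.18. In AZIP kidneys the signal was 5.90, 5.78 and 5.44, against 5.45, 5.69 and 5.62 in FVB controls. These groups overlapped, and their difference was 0.12 ± 0.14 with an interval of -0.18 to 0.42. The effect in PpargΔ/Δ minus the effect in AZIP was -1.60 ± 0.20, which is the difference for which the gene was chosen. The SE and intervals given for Cfi take no account of that choice and cannot serve as a test.

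Cfi differed more between the backgrounds than between either mutant and its control. FVB controls averaged 5.59 ± 0.12 and mixed controls 9.42 ± 0.27 (SD, n = 3 each), a difference of -3.83 ± 0.14 (SE). That is a signal 14.2-fold lower in FVB, at a level where RMA can shrink differences. In order, the group means were 9.42 in mixed controls, 7.94 in PpargΔ/Δ, 5.71 in AZIP and 5.59 in FVB controls, and only the last pair overlapped. With a filter that drops genes under the median of all gene means, which lay at 7.74, Cfi falls out, because its mean over the 12 arrays is pulled down by the 6 FVB arrays. Their level of 5.44 to 5.90 lies under 5.97, the lower quartile of all gene means. Whether sequence differences between the strains under the probes contribute to the signal was not tested.

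Of the 4 nearest measured protein-coding genes around Cfi on chromosome 3, 1 passed between the control groups, where 7.22% of all genes did. The nearest measured protein-coding genes on either side, Gar1 and Pla2g12a, differed by -0.04 ± 0.09 and 0.09 ± 0.05 between FVB and mixed controls (limma adjusted p = 0.857 and 0.417), and by -0.12 ± 0.09 and 0.03 ± 0.05 between PpargΔ/Δ and mixed controls (limma adjusted p = 0.511 and 0.789). Next to Gar1, Rrh was lower in FVB controls by -0.46 ± 0.08 (limma adjusted p = 0.0056), as Cfi was. Its signal was low, with group means of 5.04 to 5.50, under the lower quartile of all gene means at 5.97. In PpargΔ/Δ Rrh was at -0.14 ± 0.08 (limma adjusted p = 0.377) and in AZIP at 0.19 ± 0.08 (limma adjusted p = 0.29). Casp6, next to Pla2g12a, was at -0.02 ± 0.05 between FVB and mixed controls (limma adjusted p = 0.908). In PpargΔ/Δ Casp6 read 9.64, 9.77 and 9.63, against 9.86, 9.91 and 9.84 in mixed controls, with means of 9.68 and 9.87. These groups did not overlap, as held for 26.1% of all genes.

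By rule 5 genes were taken as most like Cfi, by the root mean square difference over the 12 arrays after each gene was centred on its own mean. They were Cpn1 at 0.426, Cyp2c23 at 0.509, Trim12a at 0.523, Lipo3 at 0.557 and Gm10590 at 0.594, against a median of 1.62 over all genes. Cpn1 encodes the catalytic subunit of carboxypeptidase N, which trims the anaphylatoxins C3a and C5a, and is itself a complement regulator. Cyp2c23 encodes a cytochrome P450 of the kidney that makes epoxides from arachidonic acid. Likeness to Cfi rests mainly on the background, since all 5 were more than 2 log2 units lower in FVB controls than in mixed controls. In the PpargΔ/Δ comparison they differed among themselves, with -0.54 for Cpn1 and -1.13 for Cyp2c23, but -0.21 for Trim12a, -0.07 for Lipo3 and 0.04 for Gm10590. Trim12a, Lipo3 and Gm10590 belong to groups of near-identical genes or are predicted genes, so their probes may read more than 1 gene.

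**Figure D2:**
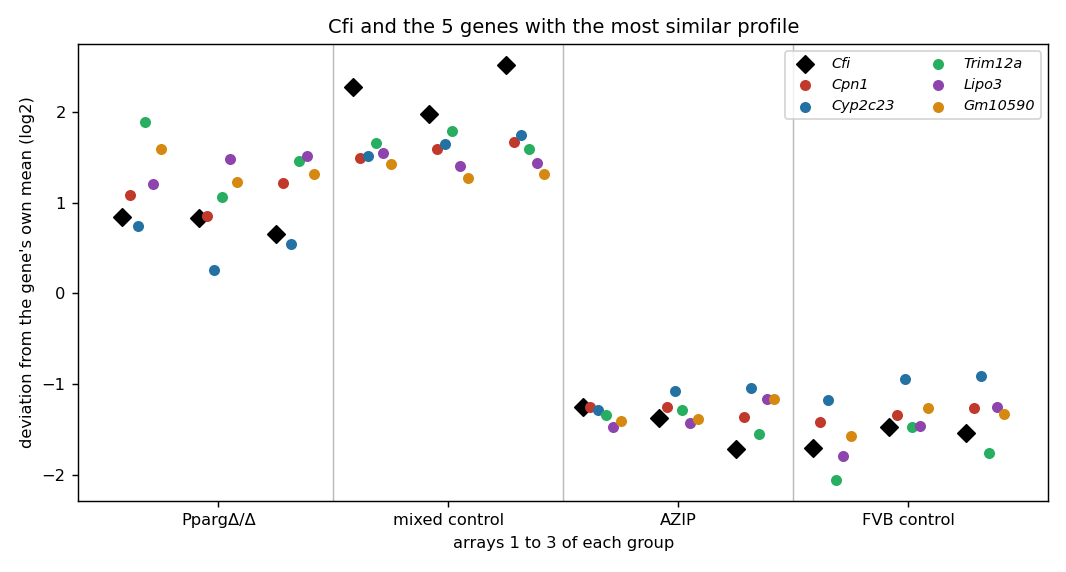
Deviation of each array from the gene's own mean over 12 arrays (log2) for Cfi (black diamonds) and the 5 genes with the most similar profile (coloured points), by group. All 6 genes lie below 0 on the FVB arrays and above 0 on the mixed-background arrays, and within the mixed background Cfi, Cpn1 and Cyp2c23 lie lower in PpargΔ/Δ than in mixed controls.

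Cfb, the protease component of the alternative pathway, was lower in both mutant kidneys. In PpargΔ/Δ kidneys its signal was 10.51, 10.44 and 10.29, against 10.89, 10.74 and 10.82 in mixed controls. In AZIP kidneys it was 10.32, 10.10 and 9.93, against 10.53, 10.51 and 10.48 in FVB controls. Neither mutant group overlapped with its control group, as held for 26.1% and 22.5% of all genes in these 2 comparisons. Cfb fell by 0.41 ± 0.09 on the log2 scale in PpargΔ/Δ (limma adjusted p = 0.025), a signal 1.33-fold lower. In AZIP it fell by 0.39 ± 0.09 (limma adjusted p = 0.045), or 1.31-fold. The 2 effects differed by -0.02 ± 0.13 with an interval of -0.29 to 0.26 (limma adjusted p = 0.991).

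The calls on Cfb were close to the threshold. Left out in turn, PpargΔ/Δ array 2 or 3 or mixed control 1 or 3 took the first call past it (limma adjusted p = 0.0106 to 0.0987 over the 12 arrays left out, difference -0.46 to -0.34). In the AZIP comparison 9 of the 12 arrays did so, PpargΔ/Δ 2, mixed control 1, 2 or 3, AZIP 2 or 3 and FVB control 1, 2 or 3 (limma adjusted p = 0.0122 to 0.162, difference -0.49 to -0.30), as did a fit to those 2 groups alone (limma adjusted p = 0.107). Cfb was the only member lower than its control group on all arrays of both mutants.

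Between the control groups Cfb read 10.53, 10.51 and 10.48 in FVB and 10.89, 10.74 and 10.82 in the mixed background, and the difference was -0.31 ± 0.09 (limma adjusted p = 0.0604). Same-numbered arrays of these 2 groups deviated together, and with the replicate number as a block the value was the same and passed (limma adjusted p = 0.0253). The difference also passed with quantile normalization again, either filter on dim genes, only these 2 groups fitted, a variance trend or array weights. It did not with arrays shifted to equal medians or probe sets averaged per gene (limma adjusted p = 0.0136 to 0.0657 over these settings). With single arrays left out it passed only without AZIP 1 or 3 (limma adjusted p = 0.0229 to 0.184). The mean order was 10.82 in mixed controls, 10.51 in FVB controls, 10.41 in PpargΔ/Δ and 10.12 in AZIP. PpargΔ/Δ overlapped with FVB controls and with AZIP. Markers of the proximal tubule are given beside Cfb and Cfi. In PpargΔ/Δ 11 of 12 were below 0, with a median of -0.16. By limma 0 were past the threshold, against 5.29% of all genes (6 at an unadjusted p under 0.05). In AZIP all 12 were below 0, with a median of -0.14. Here too 0 were past the threshold by limma, against 2.43% of all genes (7 at an unadjusted p under 0.05). Taken singly, 6 of the 12 tubule markers did not overlap in PpargΔ/Δ and 8 of the 12 in AZIP. Of all genes 26.1% and 22.5% did not overlap in these comparisons. The mean level of the tubule list did not overlap with that of the control group in either mutant. Fat cell markers had 11 of 12 below 0 in PpargΔ/Δ as well, with a median of -0.19, and their mean level did not overlap between PpargΔ/Δ, at 6.76 to 6.82, and mixed controls, at 6.93 to 7.17. Taken singly, 7 of the 12 did not overlap, against 26.1% of all genes. The markers were uneven, with Lipe at -0.59 ± 0.09 but Adipoq at -0.13 ± 0.08 and Plin1 at -0.10 ± 0.08. Adipoq lay at low signal, with group means of 4.32 to 4.47. That is under 5.97, the lower quartile of all gene means, where RMA can shrink differences. In AZIP 7 of 12 fat cell markers were below 0, with a median of -0.02. The part of either list in the differences of Cfi and Cfb was not tested.

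**Figure D3:**
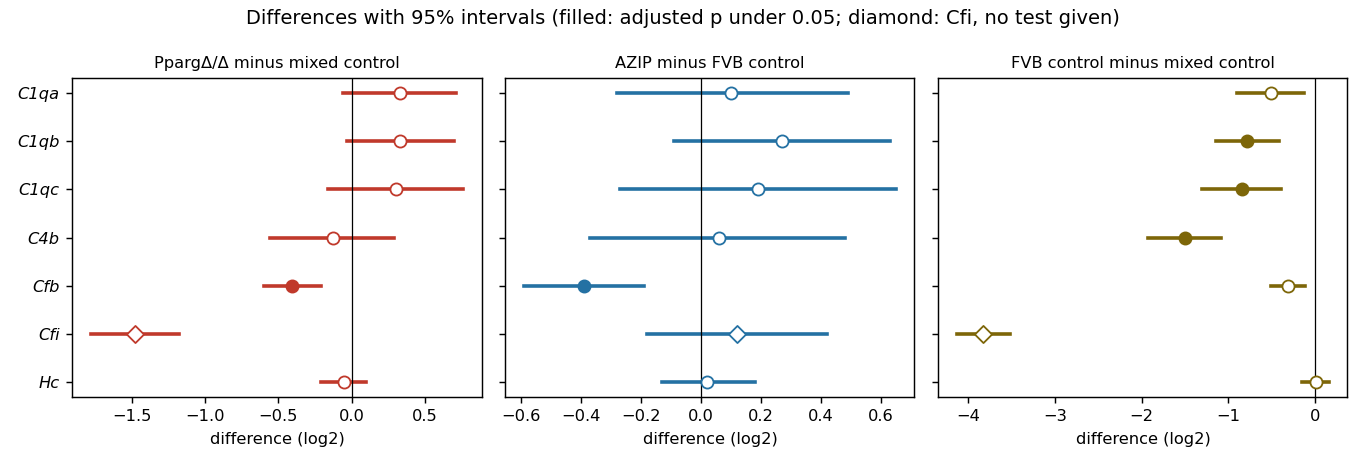
Difference (log2) of the 7 measured complement genes in the 2 mutant comparisons and between the control groups, with 95% intervals from limma. Filled symbols passed an adjusted p of 0.05, open ones did not, and the diamond is Cfi, given with no test. The intervals of Cfi take no account of how it was chosen. The horizontal scales differ, and Cfb is the gene filled in both mutant panels.

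C4b, the source of the C4 that classical and lectin pathways cut, did not pass in either mutant. In PpargΔ/Δ kidneys it read 8.21, 7.69 and 7.76, against 7.95, 7.88 and 8.24 in mixed controls. The groups overlapped, and the difference was -0.13 with an interval of -0.56 to 0.29 (limma adjusted p = 0.76). In AZIP kidneys it read 6.54, 6.70 and 6.48, against 6.80, 6.74 and 6.02 in FVB controls, a difference of 0.06 with an interval of -0.37 to 0.48 (limma adjusted p = 0.931). These intervals leave room for a change of up to about 0.5 log2 units either way.

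C4b differed between the backgrounds. FVB controls averaged 6.52 ± 0.43 and mixed controls 8.02 ± 0.19 (SD, n = 3 each), so that C4b was lower in FVB by -1.50 ± 0.19 (limma adjusted p = 0.000672), 2.84-fold. Even the highest FVB control array, at 6.80, lay more than 1 unit under the lowest mixed control array, at 7.88. The call held with each of the 12 arrays left out, with a difference of -1.64 to -1.25. C4b has a near-identical neighbour, C4a, on chromosome 17, and probes of one may read the other. The C4a probe set differed by -0.18 ± 0.12 between FVB and mixed controls (limma adjusted p = 0.475).

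C4b and Cfb lie close together in the class III part of the major histocompatibility complex on chromosome 17, with C2 and C4a. Between C4b and Cfb in the gene order are 5 other measured protein-coding genes, Cyp21a1, Stk19, Dxo, Skiv2l and Nelfe. Their differences between FVB and mixed controls were between -0.03 for Stk19 and 0.10 for Cyp21a1. None passed (limma adjusted p = 0.381 to 0.999), where 7.22% of all genes did. C2, the partner of C4 and a relative of factor B, was at -0.16 ± 0.09 in the same comparison (limma adjusted p = 0.377). In PpargΔ/Δ it was at -0.23 ± 0.09 and in AZIP at -0.27 ± 0.09 (limma adjusted p = 0.161 and 0.143).

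Genes of the interferon response are given beside C4b. All 12 measured genes of that list were below 0 in FVB controls, with a median of -0.59, and 3 of the 12 passed as lower, where 3.72% of all genes did, namely the antiviral effectors Ifit3 (-1.37 ± 0.13, limma adjusted p = 6.92e-05) and Ifit1 (-1.17 ± 0.23, limma adjusted p = 0.00993) and the transcription factor Irf7 (-0.94 ± 0.25, limma adjusted p = 0.039). The list's mean level was 7.90 to 8.07 in FVB controls and 8.48 to 8.77 in mixed controls. It was 7.83 to 8.0 in AZIP and 8.35 to 9.70 in PpargΔ/Δ. The array with the highest list level also had the highest C4b signal in PpargΔ/Δ and in FVB controls, but not in mixed controls or AZIP. Among liver genes 7 of 8 measured were below 0 in FVB controls, with a median of -0.31. Of the 8, 2 passed as lower, where 3.72% of all genes did. They were Ttr (-4.16 ± 0.20, limma adjusted p = 2.33e-07) and Apoa2 (-0.79 ± 0.11, limma adjusted p = 0.0012), while albumin, Alb, was at -0.12 ± 0.21 (limma adjusted p = 0.821). The part of either list in the C4b difference was not tested.

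The C1q genes are neighbours on chromosome 4, in the order C1qb, C1qc and C1qa with no other measured protein-coding gene between them. Among the measured members, start sequences were at hand only for C1qb, C1qc and Hc. Those of C1qb and C1qc are shown because these 2 genes passed together between the backgrounds. The stretches run from 250 bases before to 50 bases after the start of each gene, on the minus strand, from RefSeq on GRCm38.p6, at chr4:136886151-136886450 and chr4:136892865-136893164. Capitals mark GAGGAA, the core of the site bound by the myeloid factor PU.1, searched on both strands.
C1qb: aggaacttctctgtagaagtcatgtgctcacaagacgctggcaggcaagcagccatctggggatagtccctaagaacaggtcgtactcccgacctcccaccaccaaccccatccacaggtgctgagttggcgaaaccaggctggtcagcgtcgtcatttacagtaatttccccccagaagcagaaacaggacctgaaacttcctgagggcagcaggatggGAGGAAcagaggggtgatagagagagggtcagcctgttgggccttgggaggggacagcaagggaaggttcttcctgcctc
C1qc: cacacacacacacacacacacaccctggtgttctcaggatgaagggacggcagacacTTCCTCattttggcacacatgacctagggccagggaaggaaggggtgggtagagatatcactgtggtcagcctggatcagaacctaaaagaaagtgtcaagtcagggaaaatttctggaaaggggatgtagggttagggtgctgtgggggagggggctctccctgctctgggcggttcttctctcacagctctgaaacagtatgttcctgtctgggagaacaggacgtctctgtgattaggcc
Each held 1 match, in C1qb on the strand of the gene with its first base 30 bases before the start, and in C1qc on the opposite strand 193 bases before it. Of 32851 promoters of that length 28.3% hold GAGGAA, so its presence in both is a description only. The STAT site TTCNNNGAA, which 8.3% of promoters hold, had 0 matches in both.

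C1q genes were higher on average in both mutants, but did not pass the threshold in either. C1qb read 10.02, 9.35 and 9.46 in PpargΔ/Δ kidneys, against 9.27, 9.17 and 9.38 in mixed controls, and the difference was 0.33 ± 0.17 (limma adjusted p = 0.289). In AZIP kidneys it read 8.63, 9.10 and 8.57, against 8.51, 8.56 and 8.41 in FVB controls, a difference of 0.27 ± 0.17 (limma adjusted p = 0.467). These groups did not overlap, as held for 22.5% of all genes. Array 1 of PpargΔ/Δ and array 2 of AZIP stood above the others of their groups.

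C1qc showed the same arrays on top. It read 9.05, 8.29 and 8.45 in PpargΔ/Δ, against 8.30, 8.07 and 8.50 in mixed controls, and 7.31, 8.09 and 7.51 in AZIP, against 7.39, 7.48 and 7.47 in FVB controls. The differences were 0.30 ± 0.21 and 0.19 ± 0.21 (limma adjusted p = 0.465 and 0.731). C1qa read 8.85, 8.12 and 8.40 in PpargΔ/Δ, against 8.30, 7.99 and 8.09 in mixed controls, and 7.61, 7.99 and 7.55 in AZIP, against 7.50, 7.86 and 7.48 in FVB controls. Its differences were 0.33 ± 0.18 and 0.10 ± 0.18 (limma adjusted p = 0.328 and 0.843). Without PpargΔ/Δ array 1 the differences of C1qa, C1qb and C1qc in that comparison were 0.13, 0.13 and 0.08, and without AZIP array 2 those in the AZIP comparison were -0.03, 0.10 and -0.04.

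All 3 C1q genes had lower means in FVB controls than in mixed controls, and their groups did not overlap there, as held for 28.5% of all genes. C1qc averaged 7.45 in FVB controls and 8.29 in mixed controls, and the difference was -0.84 ± 0.21 (limma adjusted p = 0.0311), 1.80-fold lower. For C1qb the difference was -0.78 ± 0.17 (limma adjusted p = 0.0142), 1.72-fold, and for C1qa it was -0.51 ± 0.18 (limma adjusted p = 0.113), which missed the threshold. C1qc lost the threshold with the replicate number as a block (limma adjusted p = 0.0586) and without mixed control 1 or 3 or any 1 of the FVB controls (limma adjusted p = 0.0117 to 0.117 over the arrays left out). C1qb lost it without mixed control 3 or FVB control 3 (limma adjusted p = 0.00272 to 0.0594). The genes flanking the trio, Lactbl1 and Epha8, were at 0.11 ± 0.06 and 0.01 ± 0.07 (limma adjusted p = 0.353 and 0.952).

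Macrophage markers are given beside C1q. Of 18 markers 17 were below 0 in FVB controls relative to mixed controls, with a median of -0.31, and 2 passed as lower (11.1%, against 3.72% of all genes). These were Adgre1, which encodes a surface antigen of macrophages, at -0.95 ± 0.21 (limma adjusted p = 0.0173), and the Fc receptor Fcgr3 at -0.61 ± 0.14 (limma adjusted p = 0.0234). Csf1r, the receptor for the growth factor that maintains macrophages, was at -0.03 ± 0.09 (limma adjusted p = 0.917), and Lyz2, the lysozyme of myeloid cells, at -0.33 ± 0.32 (limma adjusted p = 0.643). The mean level of the 18 markers was 7.35 to 7.38 in FVB controls and 7.58 to 7.84 in mixed controls. In PpargΔ/Δ it was 7.70 to 8.26, overlapping with mixed controls, and in AZIP 7.25 to 7.71, overlapping with FVB controls. By limma 0 of the 18 passed in either mutant comparison (3 at an unadjusted p under 0.05 in each), where 5.29% and 2.43% of all genes did. In AZIP 13 markers were above 0 and 5 below, among them Csf1r at -0.33 ± 0.09 (limma adjusted p = 0.0701). In PpargΔ/Δ 15 were above 0 and 3 below, with Csf1r at -0.07 ± 0.09 (limma adjusted p = 0.717). The part of the macrophage markers in the C1q differences was not tested.

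Array by array the C1q genes varied with macrophage genes. After each group's mean was taken off, which leaves out every difference between groups, C1qb and C1qc correlated at r = 0.945 over the 12 arrays, C1qa and C1qb at 0.874, and C1qa and C1qc at 0.807. These deviations share the pools and the normalization of the arrays, and the values are given as a description. By rule the 8 genes with the highest r to the mean of the trio were Adgre1 (0.973), the glycosylation enzyme gene Alg8 (0.97), the cytokine receptor subunit gene Il10rb (0.967), the olfactory receptor gene Olfr1158 (0.963), the lysosomal protease gene Ctss (0.963), the transcriptional repressor gene Tgif1 (0.953), Lyz2 (0.952) and the lysosomal membrane protein gene Laptm5 (0.951). Adgre1, Ctss, Lyz2 and Laptm5 were on the macrophage list. The median r was 0.827 for the 18 macrophage markers, 0.678 for 12 interferon-responsive genes, 0.053 for 12 proximal tubule markers, -0.542 for 10 endothelial markers and -0.049 for all genes. Within the macrophage list r went from -0.256 for the scavenger receptor gene Cd163 to 0.973.

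The same 2 arrays carried most of this spread. The trio's mean lay 0.42 above its group mean in PpargΔ/Δ array 1 and 0.36 above in AZIP array 2, while the macrophage markers lay 0.32 and 0.28 above. Interferon-responsive genes set these arrays apart, at 0.72 above their group mean in PpargΔ/Δ array 1 and -0.01 in AZIP array 2. Among the 6 control arrays the trio's mean stayed within -0.15 to 0.11.

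**Figure D4:**
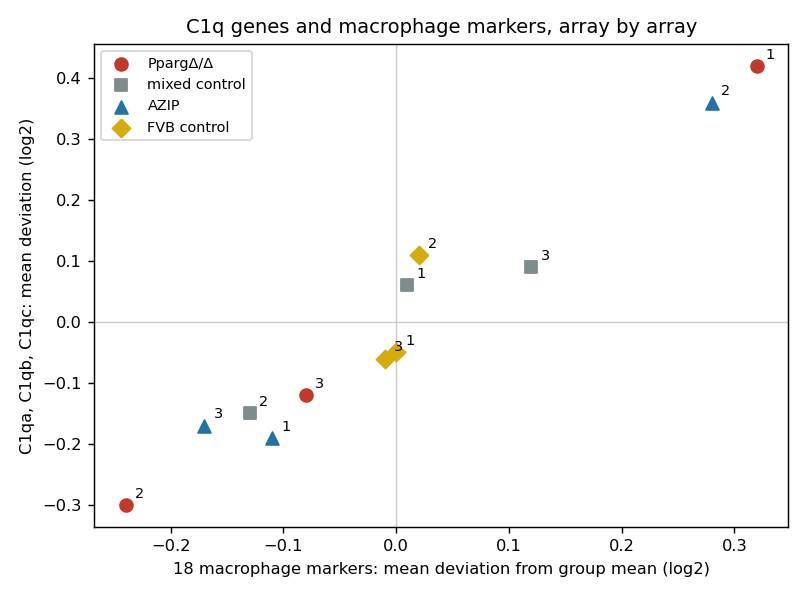
Mean deviation of C1qa, C1qb and C1qc from their group means (vertical, log2) against that of 18 macrophage markers (horizontal, log2), 1 point per array, with the array number beside it. PpargΔ/Δ array 1 and AZIP array 2 lie at the upper right, at 0.42 and 0.36 for C1q and 0.32 and 0.28 for the markers, and PpargΔ/Δ array 2 lies at the lower left, at -0.30 and -0.24.

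Hc, the gene of C5, did not pass the threshold in any comparison. It read 5.01, 5.0 and 4.87 in PpargΔ/Δ and 4.94, 5.07 and 5.03 in mixed controls, with 5.13, 5.04 and 4.96 in AZIP and 5.06, 4.88 and 5.12 in FVB controls. The differences were -0.05 in PpargΔ/Δ, 0.02 in AZIP and 0.01 between the control groups, with intervals of -0.21 to 0.10, -0.13 to 0.18 and -0.15 to 0.16 (limma adjusted p = 0.748, 0.925 and 0.971). FVB mice are known to carry an Hc allele that leaves their serum without C5. Its mean lay under 5.97, the lower quartile of all genes, and it was the 1 member that a filter at that quartile removed.

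The wider complement family was read from a list of 53 genes grouped by role, of which 49 were measured and 42 lay beyond the named set. Apart from Cfi, 48 genes were tested. In the PpargΔ/Δ comparison 3 of the 48 passed, 6.25%, against 5.29% of all genes, with 1 higher (2.67% of all genes) and 2 lower (2.62%) and a median near 0. In the AZIP comparison 3 passed as well, 6.25% against 2.43%, with 1 higher (1.3% of all genes) and 2 lower (1.13%) and a median of 0.05. Between the control groups 8 passed, 16.7% against 7.22%, with 4 higher (3.5% of all genes) and 4 lower (3.72%) in FVB. For the difference between the 2 mutant effects 0 passed by limma, with 4 at an unadjusted p under 0.05, against 0.0201% of all genes.

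Among fluid-phase regulators in PpargΔ/Δ, 2 of 6 tested genes passed, 1 higher and 1 lower, where 5.29% of all genes did. Serping1, the inhibitor of the C1 proteases, read 11.45, 11.27 and 11.47 against 10.94, 10.92 and 11.05 in mixed controls and rose by 0.42 ± 0.07 (limma adjusted p = 0.00531). Cpn1 read 11.28, 11.04 and 11.42 against 11.69, 11.79 and 11.87 and fell by 0.54 ± 0.09 on the log2 scale (limma adjusted p = 0.00579). Both calls held with each of the 12 arrays left out. In AZIP, Serping1 was at 0.18 ± 0.07 and Cpn1 at 0.05 ± 0.09 (limma adjusted p = 0.176 and 0.829). The difference between the 2 effects on Cpn1 was -0.59 ± 0.12 (limma adjusted p = 0.332) and on Serping1 0.24 ± 0.09 (limma adjusted p = 0.835), so neither effect was shown to differ between the lines.

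Between the backgrounds Cpn1 was lower in FVB controls, at 8.78, 8.86 and 8.92 against 11.69, 11.79 and 11.87, a difference of -2.93 ± 0.09 (limma adjusted p = 5.32e-09). Serping1 was higher in FVB controls, by 0.56 ± 0.07 (limma adjusted p = 0.000368). C4bp, Clu, Vtn and Cpn2, the remaining measured fluid-phase regulators, did not pass in any of the 3 comparisons.

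The terminal pathway and the receptors gave the other calls in AZIP. C8a, which encodes a subunit of the lytic pore, read 6.01, 6.15 and 6.37 in AZIP against 7.43, 7.15 and 6.54 in FVB controls and fell by 0.86 ± 0.18 on the log2 scale (limma adjusted p = 0.0341). In PpargΔ/Δ it was at -0.28 ± 0.18 (limma adjusted p = 0.432). Cd93, an endothelial and myeloid surface protein once taken for a C1q receptor, read 10.67, 10.64 and 10.70 in AZIP against 10.34, 10.37 and 10.45 in FVB controls and rose by 0.28 ± 0.06 (limma adjusted p = 0.0337). In PpargΔ/Δ Cd93 was at 0.22 ± 0.06 (limma adjusted p = 0.0505). There it passed with either filter on dim genes, probe sets averaged per gene, a variance trend or array weights. It did not with the other normalizations, only the groups compared or the block (limma adjusted p = 0.017 to 0.124 over these settings). In the AZIP comparison C8a and Cd93 each lost the threshold with 6 of the 12 arrays left out (limma adjusted p up to 0.13 and 0.145). Both also lost it in a fit to the AZIP and FVB control arrays alone (limma adjusted p = 0.107 and 0.0674).

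On cell membranes 0 of 8 regulators passed in PpargΔ/Δ and 0 of 8 in AZIP by limma, where 5.29% and 2.43% of all genes did. In each comparison 2 were at an unadjusted p under 0.05. In FVB controls Thbd, the thrombomodulin gene, was higher than in mixed controls by 0.27 ± 0.06 (limma adjusted p = 0.0135), and Csmd1 by 0.18 ± 0.05 (limma adjusted p = 0.0439). Csmd1 lost the threshold with 10 of the 12 arrays left out (limma adjusted p up to 0.157) and with the replicate number as a block (limma adjusted p = 0.0667). Thbd lost it without mixed control 3 or FVB control 1 or 2 (limma adjusted p up to 0.06). Cd93 was higher in FVB controls by 0.22 ± 0.06 (limma adjusted p = 0.0407), a call that 9 of the 12 arrays left out took past the threshold (limma adjusted p up to 0.141).

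The lectin pathway, which senses sugars on microbes, had 0 of 9 genes past the threshold in either mutant by limma, with 2 at an unadjusted p under 0.05 in each. Of all genes 5.29% passed in PpargΔ/Δ and 2.43% in AZIP, and counts of 0 in lists this short lie near those shares. Among 9 complement receptors 0 passed in PpargΔ/Δ by limma (2 at an unadjusted p under 0.05), against the same 5.29% of all genes. In the classical pathway 0 of 7 genes passed in either mutant by limma, with 2 at an unadjusted p under 0.05 in each. C1s1, the protease that cuts C4, is shown after its values were seen. It was at 0.33 ± 0.10 in PpargΔ/Δ and 0.22 ± 0.10 in AZIP (limma adjusted p = 0.0777 and 0.302).

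**Figure D5:**
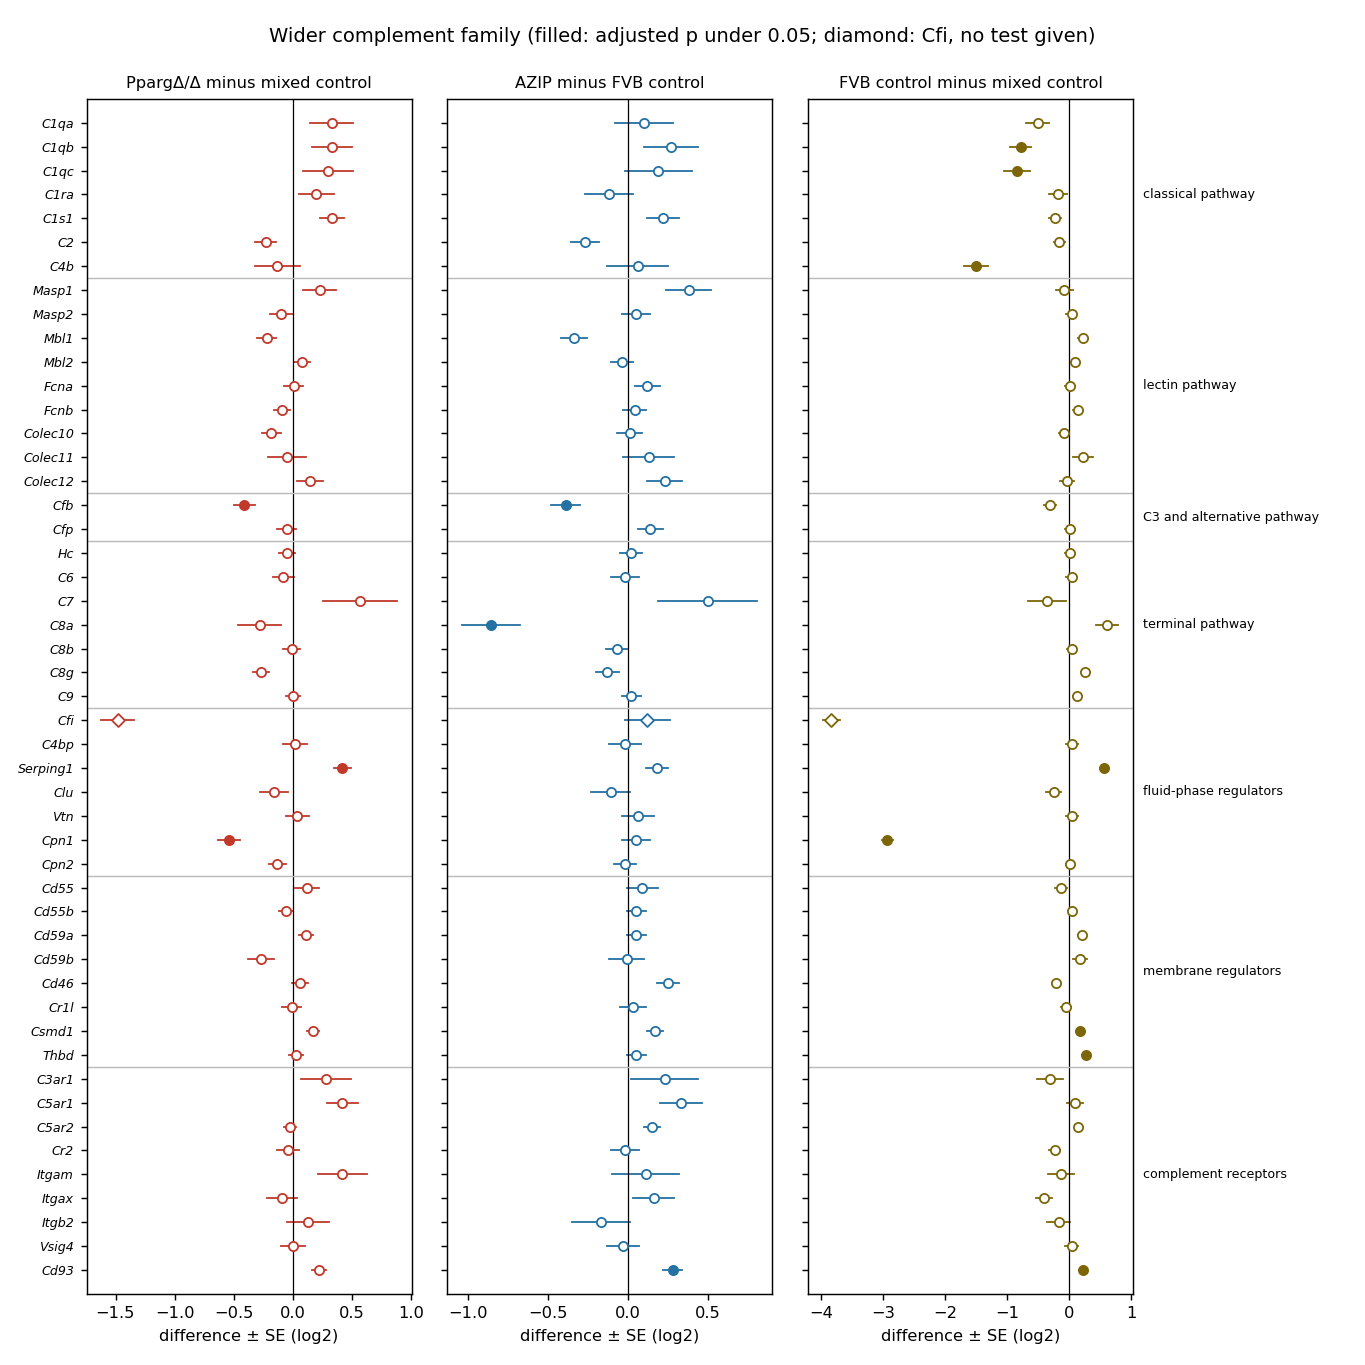
Difference ± SE (log2) of 49 genes of the complement family, grouped by role, for PpargΔ/Δ minus mixed control (left), AZIP minus FVB control (middle) and FVB control minus mixed control (right), each panel with its own scale. Filled symbols passed an adjusted p of 0.05 by limma: 3 in PpargΔ/Δ, 3 in AZIP and 8 between the control groups, with Cfi, given with no test, as a diamond.

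Genes of other responses that can induce complement were read beside the set. Of 15 acute phase and NF-kB genes 2 rose in PpargΔ/Δ (13.3%, against 2.67% of all genes), Lcn2, the lipocalin NGAL (1.94 ± 0.24, limma adjusted p = 0.00184), and the transcription factor Cebpd (0.65 ± 0.11, limma adjusted p = 0.00825). In AZIP 2 of the 15 rose (13.3%, against 1.3% of all genes), Cebpd (0.52 ± 0.11, limma adjusted p = 0.0331) and Nfkbia, the inhibitor of NF-kB (0.47 ± 0.10, limma adjusted p = 0.0322). The interferon list had 1 of 12 higher in PpargΔ/Δ (8.33%, against 2.67% of all genes), Rsad2 (0.30 ± 0.07, limma adjusted p = 0.0352), and 0 in AZIP by limma (1 at an unadjusted p under 0.05). Of 12 fat cell markers, which bear on tissue beside the kidney, 1 passed in PpargΔ/Δ (8.33%, against 5.29% of all genes), with 5 at an unadjusted p under 0.05. This was Lipe, a lipase also made outside fat, which fell by 0.59 ± 0.09 on the log2 scale in PpargΔ/Δ (limma adjusted p = 0.00368). Adipoq and Plin1, genes of mature fat cells, were at -0.13 ± 0.08 and -0.10 ± 0.08 in PpargΔ/Δ and at -0.01 ± 0.08 and -0.08 ± 0.08 in AZIP (limma adjusted p = 0.414, 0.519, 0.966 and 0.696). The signal of Adipoq was low, as given above.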

How the data were processed

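Whole-kidney RNA was read on 12 arrays. The values the authors deposited are log2 signals; the submitters' processing notes name RMA and Affymetrix Expression Console, and give no version, setting or genome build here. RMA shrinks the differences of dim probe sets. Of 35556 probe sets, 21789 had 1 gene symbol in the platform annotation, 1621 several and 12146 none. Entrez numbers gave current symbols for 21698 of them, and 19938 genes resulted, 999 of them with over 1 probe set. C3 and Cfd were not analysed here.

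The 4 group means were estimated together (limma 3.58.1, R 4.3.3) with 8 residual and 3.71 prior degrees of freedom, Benjamini-Hochberg adjustment over all genes and a threshold of 0.05. The median SE of a difference was 0.0698. The script was tested on simulated data. P-values measure the spread between pools. No 2 arrays were identical.

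Members and lists were chosen with earlier results of these data known. Named genes were the members, family genes past the threshold (at most 12 per comparison), the 3 smallest p of each marker or response list past it, Adipoq, Plin1, Alb, Adgre1, Csf1r and Lyz2, and the 5 genes most like Cfi and 8 most like C1q. C2, C4a, C1s1 and the chromosomal neighbours fall outside that rule and were chosen after their values were seen. Promoter sequences were in the RefSeq tables for C1qb, C1qc and Hc.

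Replicate numbers in the titles were checked for pairing by correlating same-numbered deviations from group means. These were 0.247, 0.181 and 0.135 between FVB and mixed controls, 0.184, 0.179 and 0.009 between PpargΔ/Δ and mixed controls, and -0.036, -0.103 and -0.01 between AZIP and FVB controls. They passed 0.1 in every pair for the control groups alone, so the block is given beside those results. Alternatives were other normalizations, filters on dim genes, averaging probe sets per gene, the groups compared alone, a variance trend, array weights, the replicate block, a threshold of 0.10 and each array left out.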

Additional observations from a re-analysis of the deposited data

Results flagged for a closer look

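The effect on Cfi differed between the 2 mutant lines by -1.60 on the log2 scale, PpargΔ/Δ minus its control less AZIP minus its control, and stood between -1.74 and -1.47 with each array left out. Cfi was chosen for this difference, and the fit that picked it out here used the same arrays, so this is a description with no p and no independent test. The FVB arrays lie at low signal, as given above. Groups of 3 arrays were not searched for single outlying arrays.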

How the results depend on the processing

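No difference among the results reported changed sign past the threshold. Over all settings of single genes other than Cfi, 892 kept their side of the threshold, 64 lost it and 20 gained it. In the PpargΔ/Δ comparison 1055 genes passed, against 607 with only the groups compared and 1938 at an adjusted p under 0.10; the family count of 3 was 6 with genes under percentile 25 or 50 left out, 6 with array weights and 8 at 0.10. In the AZIP comparison 485 passed, against 836 without genes under percentile 50, 162 with only the groups compared, 785 with a variance trend and 1035 at 0.10; the family count of 3 was 0 with only the groups compared and 6 at 0.10. For the difference between the effects 4 passed, against 1 without genes under percentile 50, 1 with the replicate block and 7 at 0.10. Between the control groups 1439 passed, against 2219 with array weights; the family count of 8 was 15 with array weights and 13 at 0.10. The cause was not tested.

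With single arrays left out, counts were 330 to 1220 in PpargΔ/Δ (family 2 to 5), 62 to 606 in AZIP (family 0 to 3), 0 to 9 for the difference between the effects (family 0) and 852 to 1596 between the control groups (family 3 to 10). The PpargΔ/Δ count was 482 and 487 without PpargΔ/Δ 2 and 3, and 330, 463 and 627 without mixed control 1, 2 and 3; its family count was 5 without PpargΔ/Δ 1 or AZIP 2. The AZIP count was 122 and 244 without AZIP 2 and 3, and 62, 100 and 255 without FVB control 1, 2 and 3. Between the control groups it was 852 to 947 without any 1 of the 6 control arrays. The AZIP family count was 0 without AZIP 2 or 3 or FVB control 1 or 2, and 1 without AZIP 1 or mixed control 2 or 3. The family count between the control groups was 5 without mixed control 1 or FVB control 3, 4 without FVB control 1 or 2, and 3 without mixed control 3. C1qa passed between the control groups with only those groups fitted (limma adjusted p = 0.0414) and without PpargΔ/Δ 1 (limma adjusted p = 0.0475).

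With the replicate number as a block 1102 genes passed in PpargΔ/Δ, 694 in AZIP and 1489 between the control groups, with 4, 4 and 8 of the family. Of 9 pairs 5 correlated over 0.1, and 5 of the pairs matched best by their own number. Between the control groups the block changed the calls on C1qc, Cfb and Csmd1 and no other among the family genes named. Pools of 3 mice, 3 arrays a group and low signal of Hc, and of Cfi in FVB, limit what could be seen.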
